A study of Mus musculus with 6 samples.

Results

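Mouse genes for matrix-cutting metalloproteases, their inhibitors and collagen crosslinking enzymes were compared in bulk RNA sequencing of liver between wild-type mice (WT, 3 libraries) and mice with an Atg14 hepatocyte-specific knockout (HepKO, 3 libraries). The genes were the protein-coding genes whose symbols begin with Mmp, Adam, Adamts, Adamtsl, Timp or Loxl and a number, plus Lox, with at least 10 counts summed over the 6 libraries. Of 88 genes with such a symbol, 62 reached that minimum, out of 56350 gene IDs in the count table. They were 17 MMP, 17 ADAM, 15 ADAMTS, 5 ADAMTSL, 3 TIMP and 5 LOX genes. The HepKO label names hepatocytes as the cells in which Atg14 was targeted. Its protein belongs to a lipid kinase complex needed for the first steps of autophagy. The sources used here do not give age, sex, diet, the Cre driver or whether WT mice carried floxed alleles. Nor do they state that each library is a separate animal, so the p-values measure only the spread between these libraries, which may be technical.

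Matrix metalloproteinases (MMPs) are zinc proteases that are made as inactive proenzymes and cut collagens, gelatin, elastin, proteoglycans and other proteins outside the cell. Tissue inhibitors of metalloproteinases (TIMPs) bind their active sites. ADAMs are membrane-bound relatives that release the outer parts of cell-surface proteins, ADAMTS enzymes are secreted and cut procollagens and proteoglycans, and ADAMTSL proteins resemble them but lack the protease domain. Lysyl oxidases oxidise lysines of collagen and elastin so that the fibres become crosslinked. In liver, stellate cells, macrophages and neutrophils are known sources of many of these proteins, and scar formation is known to depend on the balance between deposition, crosslinking and cutting of collagen.

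Of the 17 MMP genes, 6 lie in a cluster on the plus strand of chromosome 9 (chr9:7272514-7699585, mm10): Mmp13, Mmp12, Mmp3, Mmp8, Mmp27 and Mmp7. MMP genes below the count minimum are left out of it, such as Mmp1b, which shares 157 exonic bases with Mmp12 on the other strand. Promoter windows of 300 bases (250 before to 50 after the RefSeq transcription start, GRCm38.p6) matched 38 of the 62 genes. The AP-1 letters TGANTCA, the site of Fos and Jun dimers, were found in the windows of 5 genes: Mmp13, Mmp12, Mmp3, Mmp7 and Adam19. The first 4 of these are shown because they belong to the chromosome 9 cluster. They also carry the TATA box letters TATAAA close to the start. Timp1 and Mmp14 are shown beside them because their windows hold GC box letters (GGGCGG on either strand, known to be bound by Sp1) and neither of those motifs. Each sequence runs 5′ to 3′ from 100 bases before to 20 bases after the start, with the motifs in capitals.
Mmp13 (chr9:7272414-7272533, plus strand): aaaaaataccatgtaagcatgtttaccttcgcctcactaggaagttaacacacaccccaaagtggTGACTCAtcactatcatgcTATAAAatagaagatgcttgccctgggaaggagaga
Mmp12 (chr9:7347274-7347393, plus strand): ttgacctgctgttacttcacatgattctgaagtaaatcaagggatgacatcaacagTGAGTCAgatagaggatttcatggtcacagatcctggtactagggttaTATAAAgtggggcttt
Mmp3 (chr9:7445722-7445841, plus strand): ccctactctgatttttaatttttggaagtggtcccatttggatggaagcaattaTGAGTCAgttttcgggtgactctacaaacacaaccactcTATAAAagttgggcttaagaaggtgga
Mmp7 (chr9:7691990-7692109, plus strand): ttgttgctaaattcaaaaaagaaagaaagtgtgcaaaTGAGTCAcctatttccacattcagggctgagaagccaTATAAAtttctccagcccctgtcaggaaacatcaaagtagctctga
Timp1 (chrX:20870066-20870185, plus strand): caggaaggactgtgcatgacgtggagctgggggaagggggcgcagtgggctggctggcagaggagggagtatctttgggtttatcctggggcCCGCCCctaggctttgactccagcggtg
Mmp14 (chr14:54431498-54431617, plus strand): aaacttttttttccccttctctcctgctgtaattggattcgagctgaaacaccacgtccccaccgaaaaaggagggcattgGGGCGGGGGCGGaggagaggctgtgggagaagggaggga

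The AP-1 letters began 35 bases before the start in Mmp13, 44 in Mmp12, 46 in Mmp3, 63 in Mmp7 and 131 in Adam19. RefSeq lists 2 starts each for Mmp12 and Mmp7, and the AP-1 motif lies before the second start of Mmp12 and the first of Mmp7. Counted from the same starts, the TATAAA letters printed began 16 bases before in Mmp13, 7 in Mmp3 and 26 in Mmp7. In Mmp12 they began 4 bases after the start. Among all 16515 protein-coding genes with a window, 8.16% held TGANTCA, 14.3% held TATAAA and 51.0% held GGGCGG, each counted on both strands. TATAAA was found in 7 of the 38 matched genes and GGGCGG in 26. These matches describe letters in the windows only.

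Total counts per library ranged from 33145684 to 48951937, and 19540 to 24321 genes had at least 1 count. Levels are given as CPM, read counts relative to library totals that were scaled by the trimmed mean of M-values (TMM), in the order of replicates 1 to 3. The TMM factors were 0.824 to 0.860 in WT and 1.19 to 1.21 in HepKO. With unscaled library totals the median log2 fold change (HepKO over WT) of all tested genes was 0.52, against 0.01 with TMM, so each fold is relative to the scaling. A gene is said to be called where edgeR's quasi-likelihood test gave an FDR (Benjamini-Hochberg) under 0.05 over all 16051 genes that passed the filter on low counts. Hepatocyte markers, the check of the tissue, summed to 101957 to 124180 CPM in WT and 43109 to 52701 CPM in HepKO. Of these markers 9 of 10 were called lower, against 18.7% of all tested genes.

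Atg14 was at 20.9, 22.2 and 21 CPM in WT and 5.66, 8.45 and 7.95 CPM in HepKO. All 3 HepKO libraries lay below all WT libraries, with a log2 fold change of -1.54 ± 0.16 (SE) and an FDR of 0.000469.

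Of the 62 genes, 53 passed the filter. In that test 28 were called higher in HepKO, 2 were called lower (Adam9 and Adam11) and 23 were not called. Over all 16051 tested genes 19.5% were called higher and 18.7% lower. Among the 13274 protein-coding ones, the type of all genes reported here, 21.9% were called higher. The share called higher among the tested genes of these families, 52.8%, lay above both. Their median log2 fold change was 1.33, against 0.01 over all tested genes. A gene near the filter's limit could pass it through the group in which it was high, so these figures describe the genes that passed and are no test. In 24 genes the difference was called and at least 2-fold higher, against 12.9% of all tested genes. With library totals 39 were called higher and 1 lower (46.4% and 5.84% of all tested genes). In bulk tissue, fewer cells of a type and less RNA per cell cannot be told apart, and neither can more of either.

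**Figure D1:**
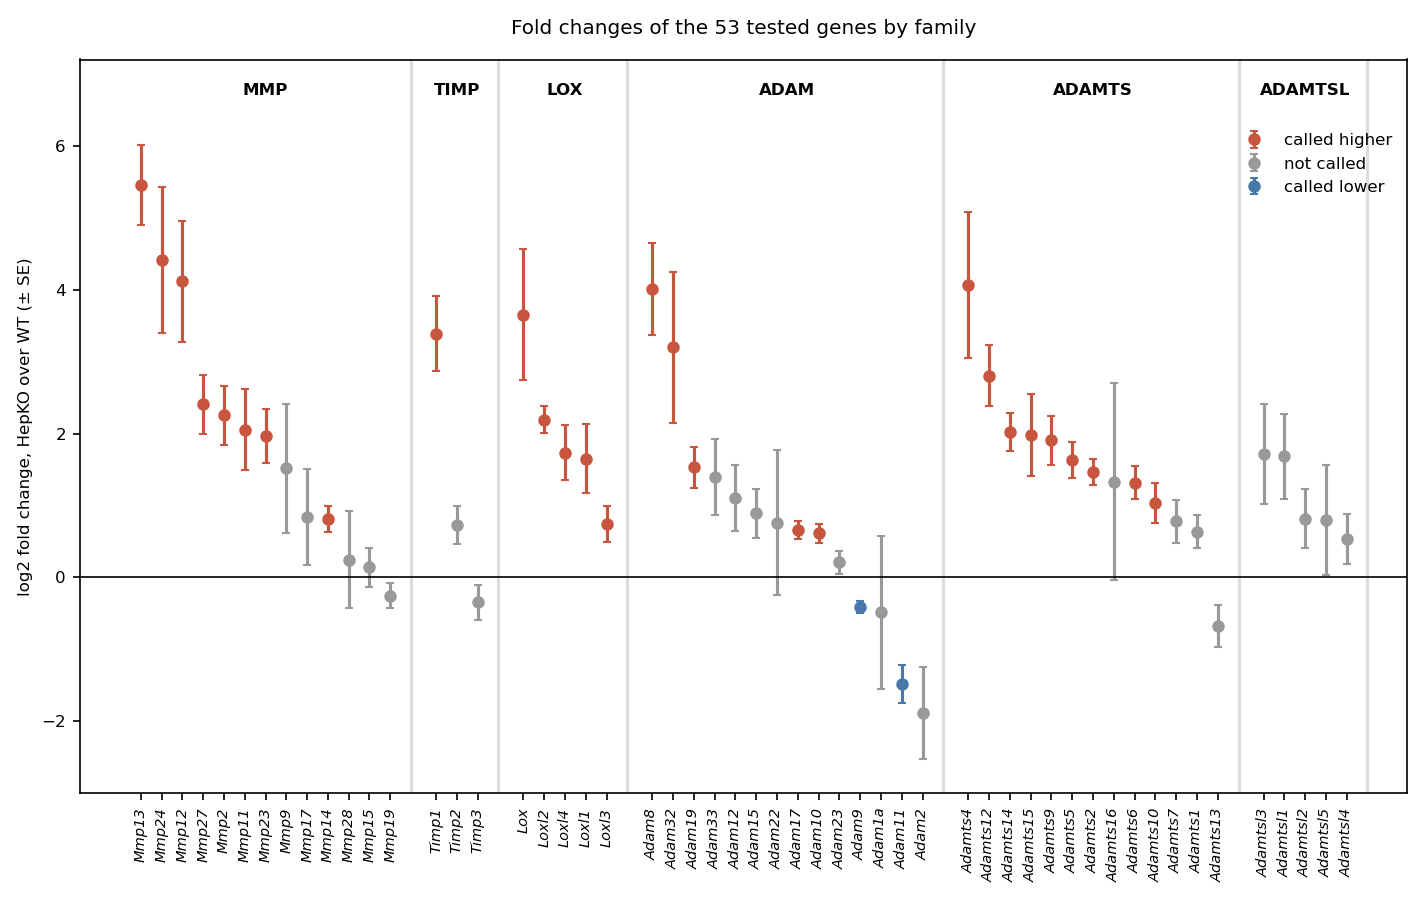
Log2 fold change (HepKO over WT, TMM scaling) of the 53 tested genes, grouped by family, each point with its standard error. Red points were called higher, blue points lower and grey points were not called. The LOX points all lie above 0, while the ADAM points run from -1.88 for Adam2 to 4.0 for Adam8.

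Among the MMPs, 13 of 17 genes passed the filter, 8 were called higher, none lower and 5 were not called, with a median log2 fold change of 1.97. The collagenase Mmp13 (ENSMUSG00000050578.10, chr9:7272514-7283331), which cuts fibrillar collagen and is the main interstitial collagenase of rodents, had the highest fold change of all. Mmp13 was at 0.135, 0.390 and 0.410 CPM in WT and at 13.9, 6.62 and 21.6 CPM in HepKO. Every HepKO library exceeded every WT library by far, and HepKO 2 was the lowest of its group. The log2 fold change of Mmp13 was 5.45 ± 0.55 (FDR 0.000397).

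Mmp12 (ENSMUSG00000049723.14, chr9:7344381-7369499), the macrophage elastase, was at 1.59, 8.14 and 0.556 CPM in WT and at 71.6, 28.8 and 79.9 CPM in HepKO. The WT libraries differed widely, WT 2 being the highest, yet it lay below the lowest HepKO library, which was again HepKO 2. The log2 fold change was 4.11 ± 0.84 (FDR 0.00662), and 5.86 when WT 2 was left out (FDR 0.00104). The third tested gene of the cluster, Mmp27, an MMP whose substrates are little known, was at 0.473, 1.14 and 0.585 CPM in WT and at 3.24, 3.30 and 5.28 CPM in HepKO. Its groups did not overlap, and its log2 fold change was 2.41 ± 0.41 (FDR 0.00301).

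The other 3 genes of the cluster that reached the count minimum did not pass the filter. Mmp7, matrilysin, an enzyme made by duct epithelium, was at 0, 0.251 and 0.0878 CPM in WT and 0.103, 2.25 and 0.356 CPM in HepKO, with only HepKO 2 above 1 CPM. Mmp8, the collagenase of neutrophils, was at 0, 0.0836 and 0 CPM in WT and 0.517, 0.223 and 0.0762 CPM in HepKO. These are 3 counts in WT, all in WT 2, and 30, 10 and 3 counts in HepKO. HepKO 3 lay below WT 2, so the groups overlapped, and most HepKO counts came from HepKO 1. Mmp3, the stromelysin that can activate other MMPs, stayed at or under 0.121 CPM in every library. Any part of the AP-1 and TATA letters printed above in the levels of the cluster was not tested.

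Gelatinases cut denatured collagen and the type IV collagen of basement membranes. Mmp2 (ENSMUSG00000031740.8, chr8:92827291-92853420), a gelatinase known from stellate cells and fibroblasts, was at 1.89, 2.87 and 0.820 CPM in WT and at 9.68, 10.3 and 6.68 CPM in HepKO. The groups were well apart, with a log2 fold change of 2.25 ± 0.41 (FDR 0.00421). Mmp9, the gelatinase of neutrophils and macrophages, was at 0, 0.334 and 0.498 CPM in WT and at 1.02, 0.424 and 0.991 CPM in HepKO. HepKO 2 lay below WT 3, and Mmp9 was not called (log2 fold change 1.51 ± 0.90, FDR 0.223).

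Membrane-type MMPs are anchored in the cell surface, and Mmp14 is known to cut collagen there and to activate pro-Mmp2. Mmp14 (ENSMUSG00000000957.11, chr14:54431612-54445364) was at 38.4, 29.4 and 22.2 CPM in WT and at 52.0, 53.4 and 52.1 CPM in HepKO. The HepKO libraries were close to each other and above all WT libraries, with a log2 fold change of 0.81 ± 0.18 (FDR 0.00975). Mmp15, another membrane-type enzyme, was not called: its HepKO libraries, at 20.2, 47.9 and 32.4 CPM, lay on both sides of the WT range of 28.5 to 32.5 CPM. Mmp24, the third of this class, had 3 counts in WT, all in WT 2, and 0.740, 0.357 and 0.991 CPM in HepKO. Its count ratio was 22.9 (95% interval 7.60 to 113, which covers counting error only, FDR 0.0109), and 16.1 without WT 1 and 15.0 without WT 3. Without WT 2 it was at least 14.6-fold higher than a floor of 3 counts for the WT libraries together. Mmp24 shares 637 exonic bases with BC029722, which had 4933 counts against 101 for Mmp24, so its reads are uncertain.

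Mmp23, a small membrane-bound MMP, was at 0.541, 0.780 and 0.585 CPM in WT and at 2.65, 3.17 and 1.68 CPM in HepKO. The groups did not overlap (log2 fold change 1.97 ± 0.37, FDR 0.00472). Mmp11, a stromelysin known from the stroma around tumours, had a log2 fold change of 2.06 ± 0.57 (FDR 0.0234). The Mmp11 call was lost when WT 1, WT 3, HepKO 2 or HepKO 3 was left out (FDR 0.0617 to 0.0896), and 155 of its exonic bases are shared with Chchd10, which had 28745 counts against 165. Mmp19, a basement-membrane-cutting MMP, was the most abundant MMP per kb of exon in both groups, at 94.8, 96.7 and 116 CPM in WT and 109, 67.5 and 80.8 CPM in HepKO. Its groups overlapped through HepKO 1, and it was not called (-0.25 ± 0.18, FDR 0.301). When HepKO 1 was left out Mmp19 was called lower (-0.47, FDR 0.0284), and with library totals its fold change was 0.26 (FDR 0.243). Mmp17 and Mmp28 stayed under 1 CPM in every library and were not called, and Mmp25 did not pass the filter.

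**Figure D2:**
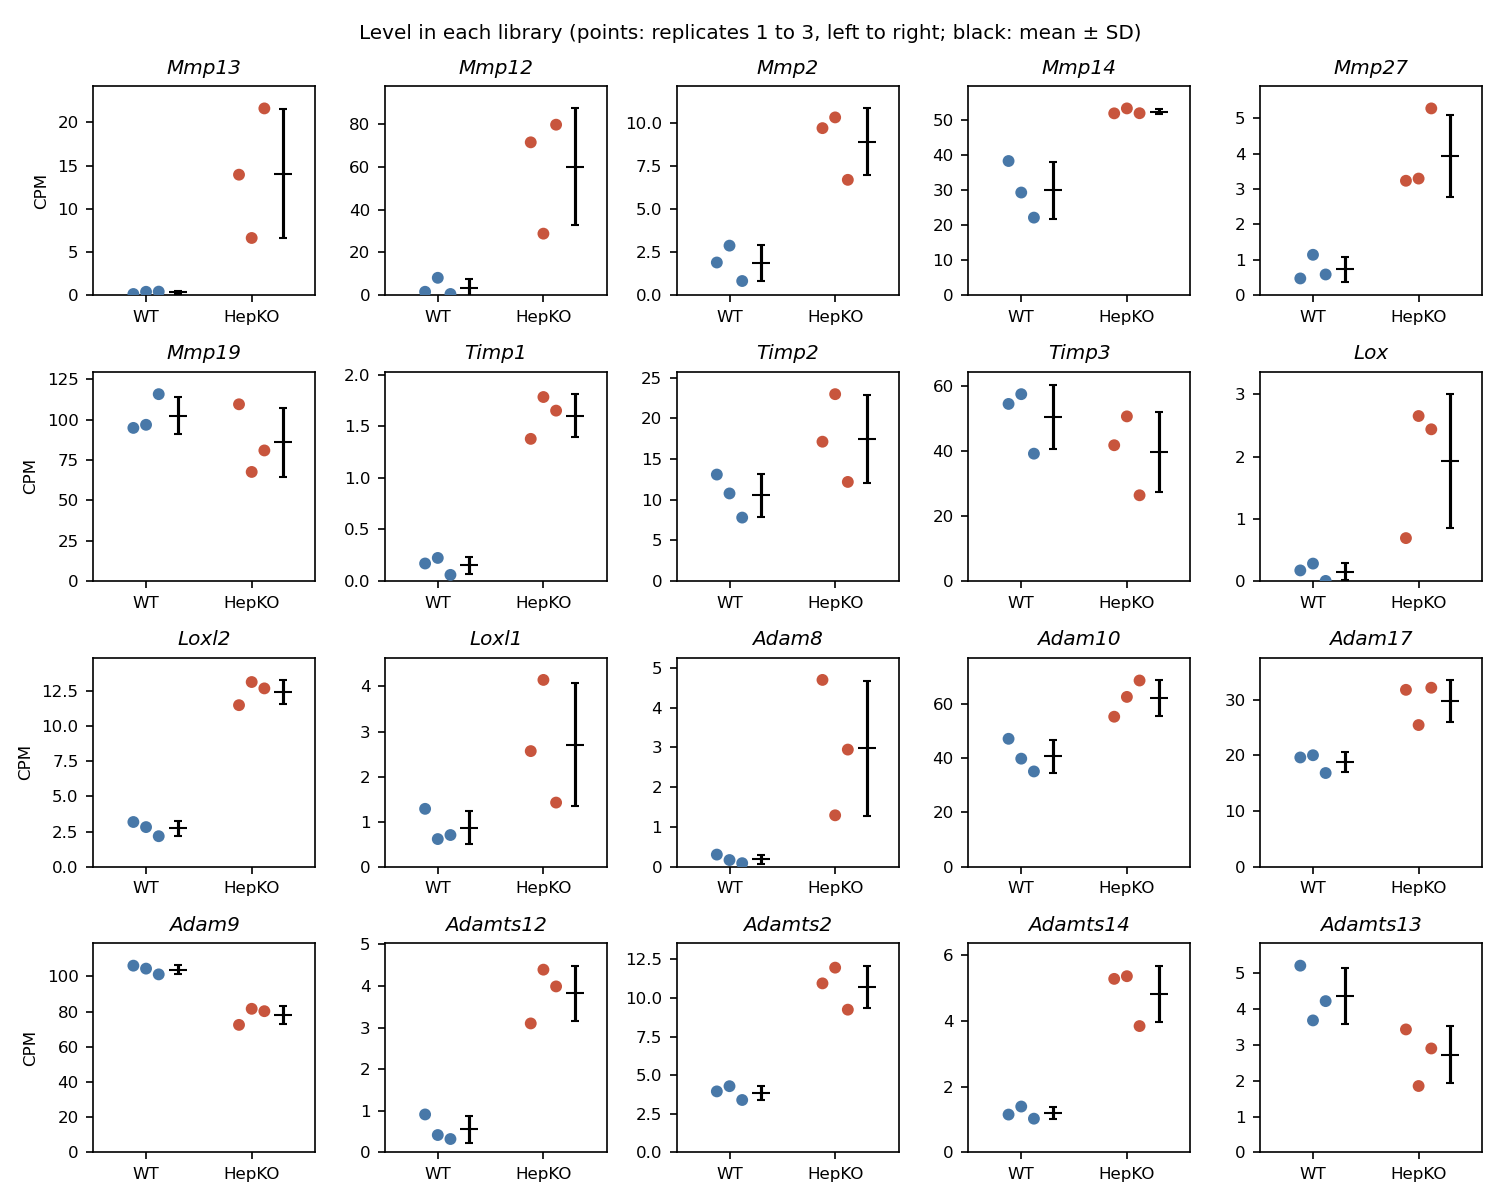
CPM in each library for 20 of the genes, with WT in blue, HepKO in red and the mean ± SD of 3 libraries in black, each panel on its own axis from 0. Mmp13, Adam8 and Lox show the widest relative spread among HepKO libraries, while the HepKO points of Mmp14 lie between 52.0 and 53.4 CPM, and those of Mmp19 and Timp3 overlap WT.

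Summed over the family, MMP transcripts per kb of exon showed a smaller fold than any MMP gene called higher. The sum was 41.8 ± 1.84 CPM per kb (SD, n = 3) in WT and 60.3 ± 7.10 CPM per kb in HepKO, 1.44-fold higher with no overlap and 2.05-fold higher with library totals. The make-up of the sum shifted, and shares within a library do not depend on the scaling. Mmp19 made up 66.4% to 74.6% of the MMP sum in WT and 36.0% to 47.5% in HepKO. Mmp12 made up 0.175% to 2.72% in WT and 7.63% to 17.4% in HepKO. Mmp13 made up 0.125% to 0.354% in WT and 4.75% to 12.7% in HepKO. The share of Mmp14 overlapped between groups, at 8.48% to 16.0% in WT and 13.4% to 17.2% in HepKO.

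TIMPs block MMPs and, for Timp3, several ADAM and ADAMTS enzymes. The 3 TIMP genes that reached the minimum passed the filter, and 1 of them was called. Timp1 (ENSMUSG00000001131.11, chrX:20870166-20874735), a secreted inhibitor induced in injured liver, was at 0.169, 0.223 and 0.0585 CPM in WT and at 1.38, 1.78 and 1.65 CPM in HepKO. All HepKO libraries were similar and far above WT. The log2 fold change was 3.39 ± 0.53 (FDR 0.00204).

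Timp2, which inhibits MMPs and also links pro-Mmp2 to Mmp14 at the cell surface, was at 13.1, 10.8 and 7.79 CPM in WT and at 17.1, 23.0 and 12.2 CPM in HepKO. HepKO 3 lay below WT 1, and Timp2 was not called (0.73 ± 0.26, FDR 0.0607). It was called higher when HepKO 3 was left out (FDR 0.0290), and also with DESeq2 (FDR 0.0181), no filter (0.00567) and library totals (0.00642). Timp3 (ENSMUSG00000020044.13, chr10:86300372-86349506), which is bound to the matrix, was at 54.6, 57.6 and 39.3 CPM in WT and at 41.9, 50.8 and 26.4 CPM in HepKO. The groups overlapped and it was not called (-0.35 ± 0.24, FDR 0.294, with 0.16 under library totals). Timp3 lies on the strand opposite to Syn3, with 1733 exonic bases shared, but Syn3 had 221 counts against 10773.

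Within the TIMP sum per kb, Timp3 held 65.4% to 70.1% in WT and 39.4% to 46.4% in HepKO. Timp1 held 0.958% to 2.49% in WT and 14.0% to 22.6% in HepKO, and Timp2 held 27.4% to 32.7% and 38.0% to 41.7%. All 3 shares separated the groups, although the summed TIMP level overlapped between them (9.07 ± 1.90 CPM per kb in WT and 11.1 ± 2.95 CPM per kb in HepKO, SD). The ratio of summed MMP to summed TIMP transcripts per kb ran from 3.93 to 6.37 in WT and from 3.69 to 7.72 in HepKO, so the HepKO range enclosed the WT range. Timp4, the fourth member of the family, had 8 counts in all and was below the minimum.

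**Figure D3:**
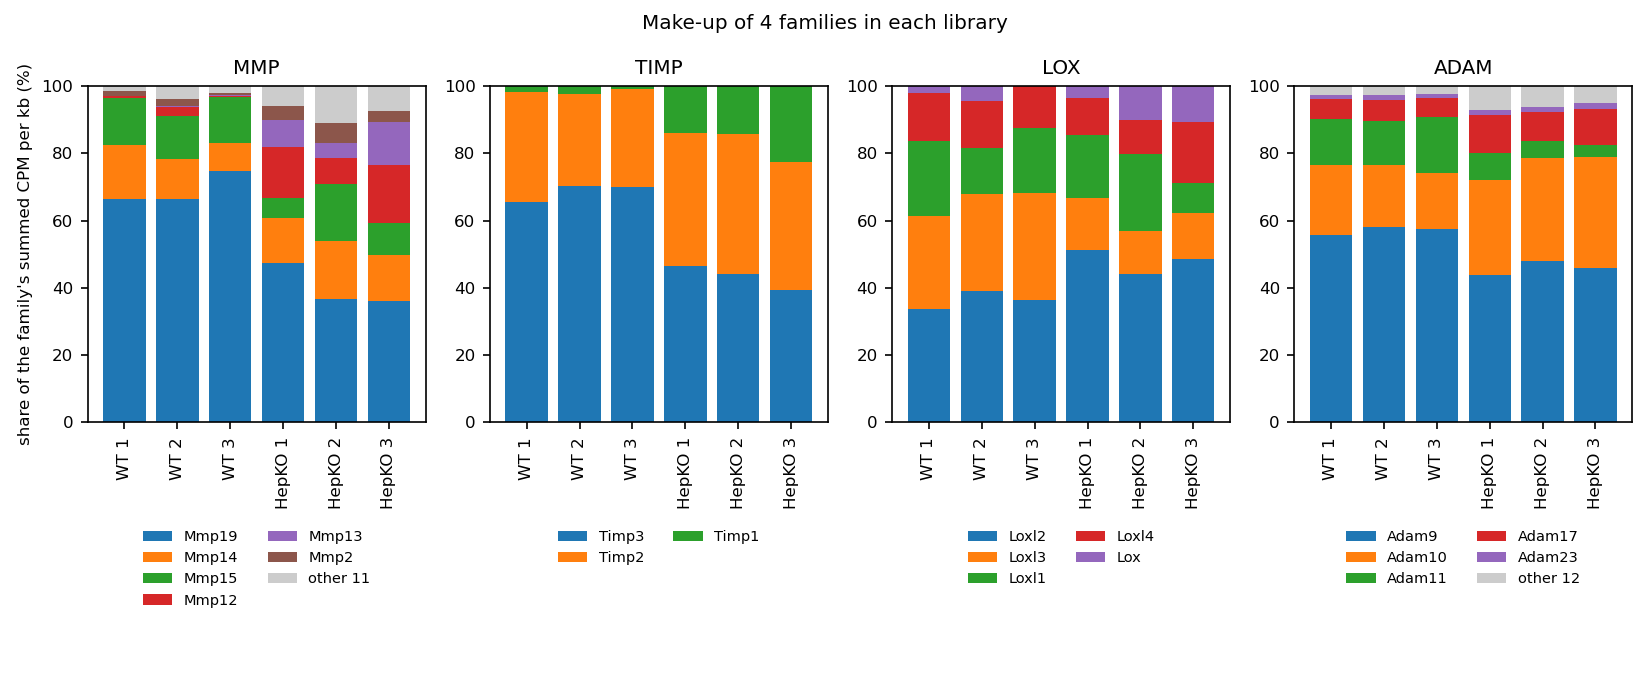
Share of each gene in its family's summed CPM per kb, in percent, for the MMP, TIMP, LOX and ADAM families in the 6 libraries. Mmp19 holds at least 66.4% of the MMP sum in WT and at most 47.5% in HepKO, and Timp1 takes at least 14.0% of the TIMP sum in every HepKO library.

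Lysyl oxidases start the crosslinking of collagen and elastin. All 5 genes passed the filter and all 5 were called higher, with log2 fold changes from 0.74 to 3.65. Loxl2 (ENSMUSG00000034205.16, chr14:69609068-69695834), known for crosslinking fibrillar collagen in liver scars, was at 3.18, 2.81 and 2.17 CPM in WT and at 11.5, 13.1 and 12.7 CPM in HepKO. Both groups were tight and far apart. Its log2 fold change of 2.19 ± 0.19 had the smallest FDR of all these families (0.000213).

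Lox, the founding enzyme of the family, was at 0.169, 0.279 and 0 CPM in WT and at 0.689, 2.65 and 2.44 CPM in HepKO. HepKO 1 was much lower than HepKO 2 and HepKO 3 but above every WT library, and the log2 fold change was 3.65 ± 0.91 (FDR 0.0156). The call was lost without HepKO 2 (3.34, FDR 0.0522), and the value was 4.56 without WT 2. Loxl4 was at 1.05, 0.780 and 0.585 CPM in WT and at 1.96, 2.36 and 3.71 CPM in HepKO, with no overlap (1.73 ± 0.38, FDR 0.00945).

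Loxl1, which acts mainly on elastin, was at 1.28, 0.613 and 0.703 CPM in WT and at 2.57, 4.15 and 1.42 CPM in HepKO. HepKO 3 lay just above WT 1, and the log2 fold change was 1.65 ± 0.48 (FDR 0.0290). The Loxl1 call was lost without WT 2, WT 3, HepKO 1 or HepKO 2 (FDR 0.0534 to 0.107). Loxl3 had the smallest change, 0.74 ± 0.25 (FDR 0.0484), and its call was lost when any library other than WT 1 was left out (FDR 0.0860 to 0.129). Loxl3 also shares 535 exonic bases with Htra2. The number of LOX genes called higher was therefore 2 to 5 when single libraries were left out. Per kb, the summed LOX level was 3.48-fold higher in HepKO with no overlap, and 4.95-fold higher with library totals. Loxl2 held 33.8% to 39.1% of that sum in WT and 44.0% to 51.1% in HepKO, while Loxl3 held 27.5% to 31.7% and 12.9% to 15.5%.

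Of the 17 ADAM genes, 14 passed the filter, 5 were called higher, 2 lower and 7 were not called. Among the 8 ADAMs classed as catalytic, with those of the reproductive tract set apart, 4 were called higher and 1 lower. Adam8 (ENSMUSG00000025473.16, chr7:139978932-139992562), a protease of myeloid cells, was at 0.304, 0.167 and 0.0878 CPM in WT and at 4.70, 1.29 and 2.95 CPM in HepKO. HepKO 2 was again the lowest of the HepKO libraries but above all WT libraries. The log2 fold change was 4.0 ± 0.64 (FDR 0.00229).

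Adam10 and Adam17 are the main sheddases of cell-surface proteins. Adam17, which releases tumour necrosis factor and ligands of the epidermal growth factor receptor, was at 19.6, 20.03 and 16.8 CPM in WT and at 31.8, 25.5 and 32.2 CPM in HepKO. Adam10, which cuts Notch receptors and cadherins, was at 47.1, 39.8 and 35.1 CPM in WT and at 55.3, 62.6 and 68.6 CPM in HepKO. Neither gene's groups overlapped, and the log2 fold changes were modest: 0.66 ± 0.13 (FDR 0.00538) for Adam17 and 0.61 ± 0.13 (FDR 0.00921) for Adam10. Adam17 shares 311 exonic bases with Iah1, which had 14114 counts.

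Adam19, a sheddase of neuregulins, was at 1.18, 1.48 and 0.878 CPM in WT and at 3.65, 3.30 and 3.30 CPM in HepKO. Its HepKO values were nearly equal and the groups were separate (1.53 ± 0.29, FDR 0.00459). Adam12, Adam15 and Adam33 were above all WT libraries in all HepKO libraries but were not called (FDR 0.0705 to 0.0931), a pattern of separate groups that 27.1% of all tested genes showed. With DESeq2 Adam15 (FDR 0.0465) and Adam33 (FDR 0.0454) were called higher, and with library totals all 3 were (FDR 0.0117 to 0.0184).

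Adam9 (ENSMUSG00000031555.15, chr8:24949611-25016927), a sheddase with broad expression, was the most abundant ADAM per kb in every library. Adam9 was at 106, 104 and 101 CPM in WT and at 72.5, 81.6 and 80.3 CPM in HepKO. All HepKO libraries lay below WT under TMM, with a log2 fold change of -0.41 ± 0.09 (FDR 0.00878), but with library totals the value was 0.10 (FDR 0.390), so its direction depends on the scaling. Its share of the ADAM sum per kb was 55.7% to 58.0% in WT and 43.9% to 47.9% in HepKO, while the share of Adam10 was 16.7% to 20.7% in WT and 28.1% to 33.0% in HepKO. Unequal change between Adam9 and Adam10 is thus seen whatever the scaling. The ADAM sum itself was 44.3 ± 1.78 CPM per kb in WT and 41.3 ± 1.14 CPM per kb in HepKO, and the ratio of 0.932 became 1.33 with library totals.

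Adam11 (ENSMUSG00000020926.16, chr11:102761439-102780262), a protease-dead ADAM known from neurons, was the other gene called lower. Adam11 was at 36.1, 32.2 and 40.9 CPM in WT and at 18.7, 11.7 and 8.49 CPM in HepKO. The groups were well apart, with a log2 fold change of -1.48 ± 0.26 (FDR 0.0036), and of -0.97 with library totals (FDR 0.0149). Adam22 and Adam23, classed with Adam11 as protease-dead, were not called. ADAMs of the reproductive tract were classed apart, whether or not they have an active protease domain.

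ADAMs of the reproductive tract were detected at low levels. Adam32 was called higher (3.20 ± 1.05, FDR 0.0443), with 5 counts in WT, all of them in WT 2, and the call was lost when any library other than WT 2 was left out (FDR 0.0792 to 0.135). Without WT 2 Adam32 was at least 10.6-fold higher than the floor of 3 counts. Adam2, a sperm surface protein, was lower in all HepKO libraries but was not called (-1.88 ± 0.64, FDR 0.0505). Adam24 had 9, 0 and 2 counts in WT and none in HepKO. Its groups overlapped at 0, and without WT 1 both groups lay under the floor, so no fold is given. Adam4, Adam21 and Adam24 did not pass the filter, and Adam1a was not called.

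ADAMTS genes had 13 of 15 members past the filter, of which 9 were called higher, none lower and 4 were not called. The procollagen N-proteinases remove the amino-terminal propeptide so that collagen can form fibres. Adamts2 (ENSMUSG00000036545.8, chr11:50602084-50807573) was at 3.95, 4.29 and 3.4 CPM in WT and at 11, 12 and 9.25 CPM in HepKO. Adamts14, with the same activity, was at 1.15, 1.39 and 1.02 CPM in WT and at 5.27, 5.35 and 3.84 CPM in HepKO. Both genes separated the groups widely, with log2 fold changes of 1.47 ± 0.18 (FDR 0.000758) for Adamts2 and 2.02 ± 0.26 (FDR 0.00103) for Adamts14. Adamts3, the third enzyme of this class, did not pass the filter.

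Proteoglycanases cut versican and aggrecan. Of 5 such genes, 4 were called higher: Adamts4, Adamts5, Adamts9 and Adamts15. Adamts5, a major aggrecanase, was at 2.03, 2.09 and 2.11 CPM in WT and at 8.30, 6.17 and 4.78 CPM in HepKO. The WT libraries were nearly equal, the HepKO libraries spread but all higher, and the log2 fold change was 1.63 ± 0.25 (FDR 0.00202). Adamts1, which was the most abundant ADAMTS per kb in both groups, was at 13.1, 15.1 and 8.20 CPM in WT and at 16.5, 18.0 and 22.2 CPM in HepKO. Its groups did not overlap but it was not called (0.64 ± 0.23, FDR 0.0572), and without WT 2 it was called (0.86, FDR 0.0286). Adamts1 was also called higher with DESeq2 (FDR 0.0226), limma-voom (0.0473), the filter at 1 CPM (0.0474), no filter (0.0095) and library totals (0.00511).

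Adamts9 was called with a log2 fold change of 1.91 ± 0.34 (FDR 0.00376) and Adamts15 with 1.98 ± 0.57 (FDR 0.0267). The Adamts15 call was lost without WT 1, WT 2 or HepKO 3 (FDR 0.0660 to 0.100). Adamts4 was at 0, 0.279 and 0 CPM in WT and at 1.21, 1.96 and 1.88 CPM in HepKO (4.07 ± 1.01, FDR 0.0153). Its only WT counts were in WT 2, without which it was at least 34.6-fold higher than the floor.

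Adamts12, known to cut cartilage oligomeric matrix protein, was at 0.912, 0.418 and 0.322 CPM in WT and at 3.10, 4.39 and 3.99 CPM in HepKO. All HepKO libraries were clearly higher (2.81 ± 0.42, FDR 0.00184). Adamts6 (1.32 ± 0.23, FDR 0.00354) and Adamts10 (1.03 ± 0.28, FDR 0.0212) were also called higher, and the Adamts10 call was lost without WT 1, WT 3 or HepKO 2 (FDR 0.0629 to 0.0761). Adamts7, a relative of Adamts12, was not called (0.78, FDR 0.0757), but it was when WT 2 (FDR 0.0433) or HepKO 3 (FDR 0.0493) was left out. It was also called with DESeq2 (FDR 0.0427), no filter (0.0382) and library totals (0.0104). Adamts16 was not called and Adamts17 did not pass the filter.

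Adamts13, the protease that trims von Willebrand factor and is made by stellate cells of the liver, was not called. Adamts13 was at 5.20, 3.68 and 4.22 CPM in WT and at 3.43, 1.85 and 2.90 CPM in HepKO. Every HepKO value lay below every WT value, as in 26.4% of all tested genes, with a log2 fold change of -0.68 ± 0.29 (FDR 0.0998, and -0.17 with library totals). Per kb, Adamts13 made up 16.1% of the ADAMTS sum in WT and 5.18% in HepKO, while the sum was 1.91-fold higher in HepKO with no overlap and 2.72-fold higher with library totals.

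ADAMTSL proteins bind microfibrils without cutting them. All 5 genes passed the filter and none was called, with log2 fold changes of 0.54 to 1.72 and FDR of 0.0557 to 0.446. Adamtsl1 was at 0.710, 0.613 and 0.703 CPM in WT and at 3.94, 1.83 and 0.711 CPM in HepKO, so HepKO 3 lay just above the highest WT library. It was called when HepKO 3 was left out (2.09, FDR 0.0137), with DESeq2 (FDR 0.0146) and with no filter (FDR 0.0112). Adamtsl2, known to bind a latent form of transforming growth factor beta, was at 11.7 CPM in HepKO 2 and at 3.28 to 4.37 CPM in the other 5 libraries, and it was called with no filter (FDR 0.0487). With library totals 4 of the 5 were called higher, Adamtsl5 being the exception.

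The HepKO libraries differed among themselves in these genes. Of the 28 genes called higher, 14 had their maximum in HepKO 2, 10 in HepKO 3 and 4 in HepKO 1. Markers of other cell types also differed between groups and among libraries. Over all tested genes 19.5% were called higher and 18.7% lower. Of 12 Kupffer cell and macrophage markers 11 were called higher, and their sum was 240, 463 and 267 CPM in WT and 1185, 675 and 1088 CPM in HepKO. Mmp12 was likewise highest in WT 2 among WT and lowest in HepKO 2 among HepKO libraries. Of 14 stellate cell and myofibroblast markers 7 were called higher and none lower, with sums of 458, 435 and 314 CPM in WT and 760, 807 and 704 CPM in HepKO. Lox was lowest among HepKO libraries in HepKO 1, where that sum was not. The list holds collagen genes, Dcn and Lum, which also stand in the list of fibre assembly genes described below.

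The 10 cholangiocyte and ductular markers, 6 of them called higher, summed to 67.1, 90.01 and 73.7 CPM in WT and to 198, 629 and 247 CPM in HepKO, and Mmp7 too was highest in HepKO 2. All 9 tested markers of monocyte-derived macrophages were called higher, with sums of 79.4, 99.7 and 58.6 CPM in WT and 285, 651 and 366 CPM in HepKO, and Spp1 stands in both of these lists. That sum was highest in HepKO 2, where Mmp12 was lowest among HepKO libraries. Only 3 of 10 neutrophil markers passed the filter, all 3 were called higher, and the list summed to 2.60, 5.10 and 1.90 CPM in WT and 13.8, 7.18 and 22.8 CPM in HepKO. Mmp8 was highest in HepKO 1 and the neutrophil sum in HepKO 3. Sinusoidal endothelial markers had 2 of 11 called higher and sums that overlapped, 232 to 292 CPM in WT and 269 to 342 CPM in HepKO. T and NK cell markers had 1 of 8 called higher, and B cell markers 1 of 5 called lower. The shares called in these last 3 lists were near those over all tested genes or below them. With library totals 12 of 12 macrophage, 12 of 14 stellate and 7 of 10 cholangiocyte markers were called higher. So were all 9 monocyte-derived macrophage and all 3 neutrophil markers tested, 8 of 11 endothelial and 4 of 8 T and NK cell markers. No B cell marker was, and the share of all tested genes was 46.4%. No marker of these lists was at 0 in all 6 libraries, but Ly6g, a defining neutrophil marker, had counts in HepKO 3 only. The part of these cell types in the changes of the protease, inhibitor and crosslinker genes was not tested.

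**Figure D4:**
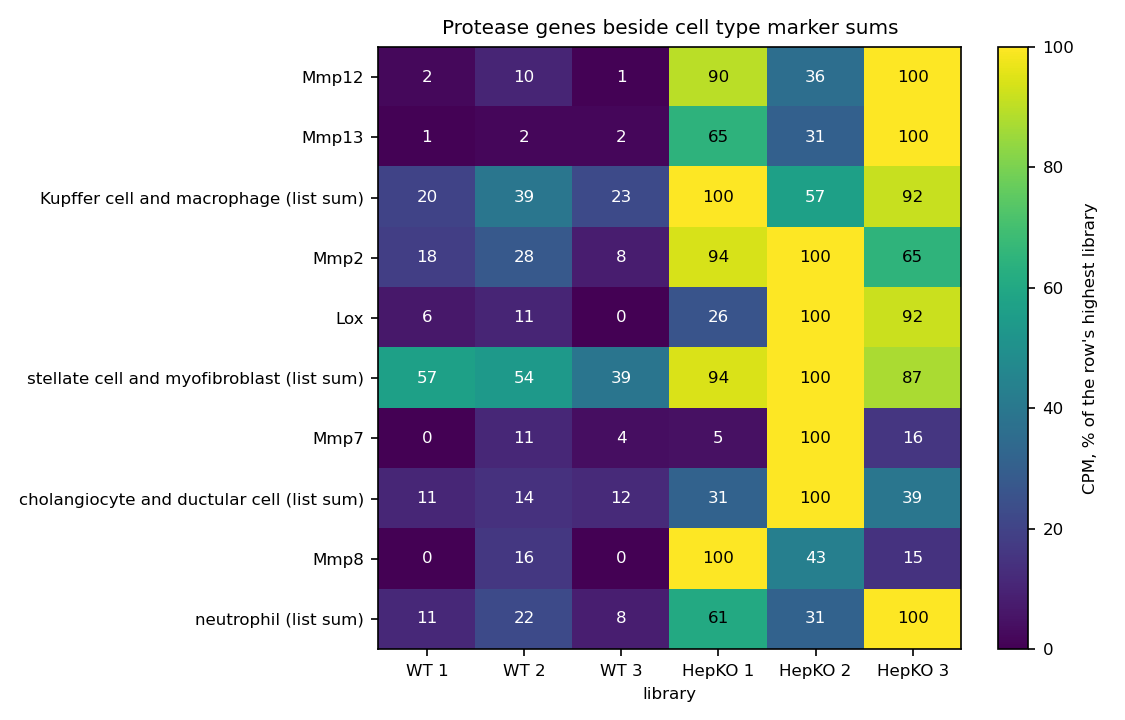
Level of 6 genes and summed CPM of 4 marker lists in each library, as percent of the highest library in the row. Mmp12 and the macrophage sum both have their lowest HepKO value in HepKO 2, and Mmp7 and the cholangiocyte sum both have their highest value there. Mmp8 is highest in HepKO 1 but the neutrophil sum in HepKO 3, and Lox is lowest in HepKO 1 but the stellate sum in HepKO 3.

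MMPs are known to be activated by plasmin and by furin-like proteases. The counts of this list and of the other partner lists below stand against the same background of 19.5% of all tested genes called higher and 18.7% lower, or 46.4% and 5.84% with library totals. Of 20 tested plasminogen activators and other MMP regulators, 7 were called higher and 6 lower, with a median log2 fold change of 0.09. Plat, tissue plasminogen activator, was at 0.372, 0.474 and 0.234 CPM in WT and at 8.23, 10.1 and 12.3 CPM in HepKO, with no overlap (4.81 ± 0.31, FDR 9.83e-05). The urokinase receptor gene Plaur was also higher (3.25 ± 0.49, FDR 0.00176). Furin, which cleaves the propeptides of membrane-type MMPs and many ADAMs, was lower (-0.70 ± 0.09, FDR 0.00111), though with library totals it was not called (-0.19, FDR 0.116). With library totals 10 of the 20 were called higher and none lower, a share near that background.

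Procollagen processing and fibre assembly genes, the partners of Adamts2, Adamts14 and the lysyl oxidases, had 21 of 36 tested called higher and 4 lower (median 1.22). The summed level of the list went the other way under TMM, at 4167 to 4327 CPM in WT and 3576 to 3997 CPM in HepKO. Abundant genes weigh most in such a sum. Tgm2, a transglutaminase that crosslinks matrix proteins, was at 98.8, 124 and 105 CPM in WT and at 315, 314 and 374 CPM in HepKO (1.62 ± 0.13, FDR 0.00016). The collagen chaperone gene Serpinh1 (1.82 ± 0.15, FDR 0.000212) and the proteoglycan gene Lum (1.97 ± 0.19, FDR 0.000326) had the next smallest p-values. With library totals 29 were called higher and none lower.

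ADAM cofactors and shed substrates had 15 of 31 tested called higher and 3 lower (median 0.61). Tspan17, one of the tetraspanins that carry Adam10, was at 1.49, 2.03 and 1.2 CPM in WT and at 24.1, 20.8 and 21.4 CPM in HepKO (3.80 ± 0.21, FDR 6.98e-05). Next came a pair of shed ligands, the chemokine Cxcl16 (2.15 ± 0.13, FDR 8.97e-05) and the growth factor Btc (2.36 ± 0.15, FDR 8.97e-05). With library totals 20 were called higher and 1 lower.

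Of 7 tested ADAMTS substrates 3 were called higher and 1 lower (median 0.64). Vcan, versican, had no count in any WT library and 1.70, 1.87 and 1.5 CPM in HepKO, at least 56.5-fold higher than the floor. Fbn1, fibrillin (2.11 ± 0.34, FDR 0.00227), and the proteoglycan gene Bgn (0.64 ± 0.16, FDR 0.0163) were the other genes called higher. Fbn1, Fbn2 and Ltbp1 also stand in the list of fibre assembly genes, and Reln in the stellate cell list, so these lists are not independent. With library totals 5 were called higher and none lower.

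Of 21 transcription factor genes known to act on MMP and TIMP promoters, 12 were called higher and 1 lower (median 0.61), or 14 and 1 with library totals. Ets2 was at 28.3, 24.5 and 18.0 CPM in WT and at 49.2, 48.8 and 48.5 CPM in HepKO (1.05 ± 0.16, FDR 0.0018). Nfkb1 rose by 0.57 ± 0.10 (FDR 0.00293). The AP-1 subunit gene Fosl1 was at 0.169, 0.0279 and 0 CPM in WT and at 2.24, 1.16 and 1.22 CPM in HepKO (4.58 ± 0.86, FDR 0.00478). Their mRNA levels carry no measurement of binding to the promoters printed above.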

How the data were processed

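Polyadenylated liver RNA of 3 WT and 3 HepKO samples was sequenced with a stranded library kit, per the labels' protocols. The authors deposited raw counts per gene. The submitters' processing notes name mm10, edgeR 3.40.2, STAR 2.7.11a, bcl2fastq and featureCounts (Subread 2.0.0). The annotation release, strand option and other settings are not given in sources used here, so reads of overlapping or antisense genes cannot be told apart. Of 56350 IDs, 55480 matched GENCODE M21, which gave symbols, biotypes and exon lengths.

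HepKO was compared with WT by edgeR 4.0.16 in R 4.3.3 (filterByExpr by group, TMM, quasi-likelihood test, 2-sided, no covariate) over all genes, with Benjamini-Hochberg adjustment and a threshold of 0.05. The SE of a log2 fold change is its size over the square root of F. CPM per kb divides by the union of exons. Groups at 0 were set against 3 counts over the group. Alternatives were DESeq2 1.42.0, limma-voom (3.58.1), RLE factors, library totals, a minimum of 1 CPM in 3 libraries, no filter, a replicate block, an FDR of 0.01 and leaving out each library. The test was tried on simulated counts.

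The genes and lists were chosen with earlier results of these data known. In each family up to 4 genes called in each direction with the smallest p, and genes of known roles in liver, are given by library; of each list, the 3 genes with the smallest p. Other genes named were chosen after their values were seen.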

Additional observations from a re-analysis of the deposited data

How the results depend on the processing

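The 28 genes called higher and 2 called lower became 35 and 2 with DESeq2, 26 and 2 with limma-voom, 28 and 2 with RLE factors, 25 and 2 with the filter at 1 CPM, 33 and 2 with no filter, and 19 and 2 at an FDR of 0.01, where 3444 genes in all were called in place of 6131. With library totals 39 were called higher and 1 lower, the log2 fold change of Adam9 turned from -0.41 to 0.10, and the log2 ratio of the summed ADAM level from -0.10 to 0.41. Leaving out single libraries gave 22 to 27 called higher and 2 to 3 lower (4392 to 5587 of all genes). Of the 30 calls, 24 to 27 were kept in those fits, 30 with DESeq2 and with RLE factors, 27 with limma-voom (lost: Adamts15, Lox and Mmp11), 29 with library totals and 29 with no filter (lost: Loxl3). The replicate block kept 27 of them (lost: Adam32, Loxl1 and Loxl3) and added Timp2 (FDR 0.0289) and Adamts7 (FDR 0.0400), with 27 called higher, 2 lower and 5071 genes in all. Samples with the same number did not deviate together (correlations of -0.12, -0.068 and 0.0015 for pairs 1 to 3). Samples with different numbers gave -0.12 to 0.18, so these correlations cannot decide whether the numbers pair the samples. The labels do not state it. The median log2 fold change of all genes was 0.11 with DESeq2. Genes under about 1 CPM rest on few counts in WT, which limits their folds.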

Other observations

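Of the 26 genes below the minimum of 10 counts, 12 had no count in any library, of which 10 were ADAM genes. Adam1a had no count in WT 1 against 0.780 and 1.17 CPM in the other WT libraries, and Adam22 had none in WT 3 against 0.439 and 0.724 CPM. The zeros fell in different libraries, and the cause was not tested. Adam1a shares 4779 exonic bases with Gm42878 and 1805 with Mapkapk5 on the same strand. Gm42878 had 0 counts and Mapkapk5 141, against 136 for Adam1a, so the reads of Adam1a are uncertain. Adamts16 had all its WT counts in WT 1, at 0.574 CPM, and of the alternatives run it was called higher only in the fit without WT 1 (FDR 0.0346).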
